A study of Mus musculus with 12 samples.

Results

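The clones described here were the expanded TCRβ clones of splenic CX3CR1+ CD8+ T cells that had no template among the CD8+ tumor-infiltrating lymphocytes (TILs) of the same experiment. They were chosen by 2 measured counts. A clone was a productive nucleotide rearrangement, one whose CDR3 the files call in frame and without a stop codon. It was kept when it had 20 or more templates in the CX3CR1+ library and 0 in the TIL library. Of 24199 productive CX3CR1+ rearrangement entries in 3 experiments, 1249 had 20 or more templates, and 614 of these were absent from the TILs. The other 635 expanded clones, detected in the TILs with 1 or more templates, served as the comparison set.

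Each T cell makes its TCRβ chain by joining one V, one D and one J gene segment on chromosome 6 of the mouse, with bases trimmed and added without a template at the junctions. The junction encodes the CDR3, the loop that contacts peptide and MHC, and the rearranged gene is passed to every daughter cell. A shared nucleotide rearrangement was therefore taken as a tag of a clone, although some rearrangements recurred between experiments, as given below. CX3CR1 is the receptor of fractalkine and marks differentiated effector CD8+ T cells in blood and spleen, while CD27 is a costimulatory receptor that is lost as effector cells differentiate.

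The libraries came from female C57BL/6 mice bearing MC38, a colon adenocarcinoma line, and every group received anti-CTLA-4 Ab and anti-PD-L1 Ab, so no untreated mice were compared. CD27lo CX3CR1-, CD27hi CX3CR1- and CX3CR1+ CD8+ T cells were flow-sorted from spleen (the labels write CX3CR1 low and high for - and +), and TILs were taken by CD8a positive selection, 2 weeks after the start of therapy. The 4 groups were sequenced once per experiment in 3 experiments (A, B and C), and each library was taken as a pool of the mice of its experiment, so that a clone could not be assigned to a mouse. Whether each mouse contributed to both the spleen and the TIL library, and equally, is not given in the sources used here, and the expected numbers below take the pools as alike. The libraries were made from genomic DNA and held no expression values, so the sorted phenotypes could not be checked against markers.

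In A, B and C, the CX3CR1+ library held 55776, 50994 and 113660 productive templates. The TIL libraries were shallower, with 5893, 12388 and 20951. The CD27lo CX3CR1- libraries held 18180 to 21622 and the CD27hi CX3CR1- libraries 49116 to 71574. With 0 templates observed, a count limit of 3 templates allowed a TIL share of up to 0.0509%, 0.0242% and 0.0143% in A, B and C. These limits and the binomial intervals below cover counting error only.

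The 3 most frequent clones of each experiment are shown as read, because they had the largest CX3CR1+ shares among rearrangements without a TIL template. The reads are 87 bases long and run 5′ to 3′ on the coding strand, with the CDR3 in capitals. The read stops 1 codon short of the CDR3 end. A clone name joins the experiment and the rank among the clones absent from TILs.
A1: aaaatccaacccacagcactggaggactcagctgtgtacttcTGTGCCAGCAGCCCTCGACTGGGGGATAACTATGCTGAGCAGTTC
A2: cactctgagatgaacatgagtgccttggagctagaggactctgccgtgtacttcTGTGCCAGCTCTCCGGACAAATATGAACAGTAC
A3: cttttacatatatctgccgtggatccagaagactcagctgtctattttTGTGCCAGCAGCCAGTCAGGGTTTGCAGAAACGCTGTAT
B1: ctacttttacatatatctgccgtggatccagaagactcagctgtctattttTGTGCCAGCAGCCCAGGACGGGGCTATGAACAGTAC
B2: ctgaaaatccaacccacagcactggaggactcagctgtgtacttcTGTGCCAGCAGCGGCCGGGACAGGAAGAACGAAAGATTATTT
B3: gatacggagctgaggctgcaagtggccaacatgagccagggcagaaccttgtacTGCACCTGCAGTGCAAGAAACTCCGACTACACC
C1: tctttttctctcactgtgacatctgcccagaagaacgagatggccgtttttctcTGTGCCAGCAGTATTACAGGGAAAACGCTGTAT
C2: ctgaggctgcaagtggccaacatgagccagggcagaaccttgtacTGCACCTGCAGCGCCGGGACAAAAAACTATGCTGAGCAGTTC
C3: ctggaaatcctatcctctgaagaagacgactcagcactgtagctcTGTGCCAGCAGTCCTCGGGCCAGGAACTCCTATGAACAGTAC
The 9 CDR3s were assembled from 6 V genes. A1 and B2 used TCRBV03-01, A3 and B1 used TCRBV05-01, and B3 and C2 used TCRBV01-01, while A2, C1 and C3 used TCRBV12-02, TCRBV19-01 and TCRBV24-01. In C3, as in the other clones of TCRBV24-01, the lower-case V part contained an in-frame stop codon.

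Expanded clones without a TIL template were found in every experiment. They numbered 246 of 324 expanded clones in A (75.9%), 155 of 305 in B (50.8%) and 213 of 620 in C (34.4%), a mean of 53.7% ± 20.9 (SD, n = 3). They held 51.8% of CX3CR1+ productive templates in A (95% Wilson interval 51.4 to 52.2%), 26.4% in B (26.0 to 26.7%) and 11.2% in C (11.1 to 11.4%), which averaged 29.8% ± 20.5 (SD, n = 3) and 18.8% without A. The share of the library in all expanded clones varied far less, at 72.3%, 76.2% and 79.1%. The spread between experiments was therefore in how the expanded templates were divided between clones with and without a TIL template.

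The order A, B, C was also the order of rising TIL depth. If every expanded clone had in the TILs the share it had in CX3CR1+ cells, a binomial count at the measured TIL depth would leave 8.99 clones at 0 in A, 0.436 in B and 2.29 in C. The observed numbers were 27.4, 356 and 92.9 times as large, and 52.4 times as large over the 3 experiments (135 without A). When the TILs of B and C were thinned to the 5893 templates of A, an average of 169 and 319 clones were at 0, which is 55.5% and 51.4% of the expanded clones beside 75.9% in A. Their shares of CX3CR1+ templates were then 51.8%, 28.0% and 20.1%. At this common TIL depth the order of the experiments stayed, and the expected numbers rose to 8.14 in B and 71.4 in C. The CX3CR1+ libraries were not thinned, so that 20 templates were 0.0359%, 0.0392% and 0.0176% of the library.

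**Figure D1:**
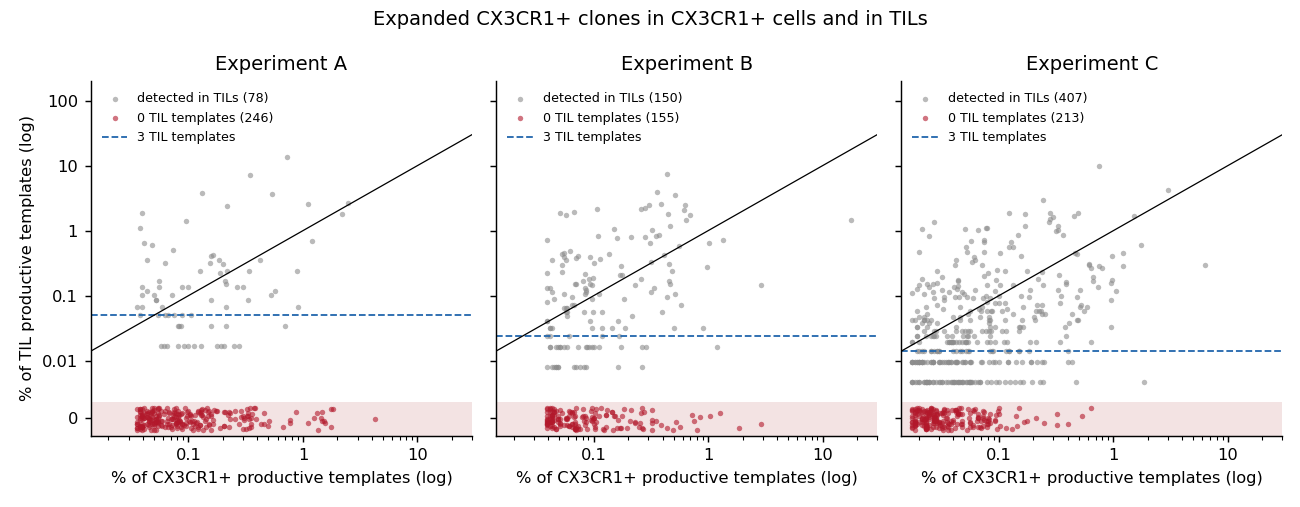
Each point is an expanded CX3CR1+ clone, placed by its percent of CX3CR1+ productive templates (log axis) and its percent of TIL productive templates (log axis, with 0 in the shaded strip, where points are spread vertically for display only). The solid line marks equal shares and the dashed line 3 TIL templates. In A the strip holds 246 of 324 clones and reaches 4.22% of the CX3CR1+ library, whereas in C it holds 213 of 620 and ends at 0.638%.

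Absence from the TILs became less frequent with clone size in all 3 experiments. Among clones of 20 to 49 CX3CR1+ templates, 80.5% in A, 55.1% in B and 47.5% in C were absent from TILs. Among clones of 200 or more templates the values were 68.4%, 31.6% and 8.70%, where TIL depth predicted practically none. In A, 26 of the 38 largest clones had no TIL template, against 12 of 38 in B and 8 of 92 in C. The most frequent CX3CR1+ clone of A was absent from its TILs. In B the first absent clone was the second most frequent, and in C it stood at rank 22. Among the 10 most frequent clones, 8 in A, 4 in B and 0 in C were absent, and among the 100 most frequent 64, 41 and 9.

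**Figure D2:**
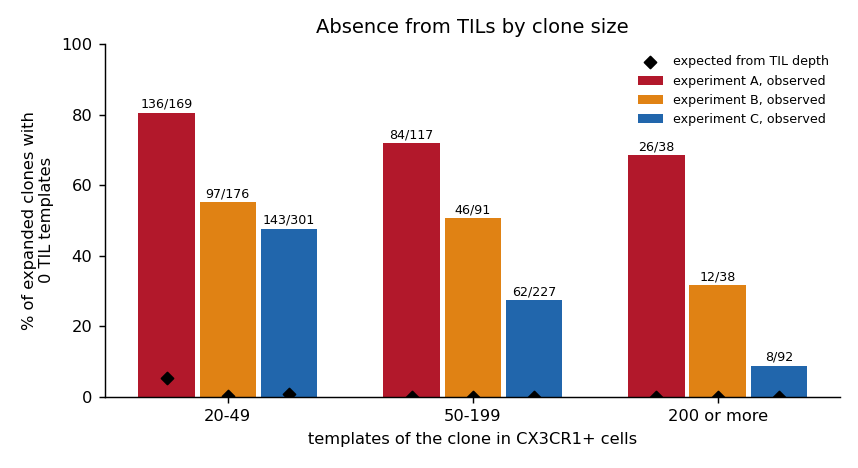
Bars give the percent of expanded clones with 0 TIL templates by the clone's CX3CR1+ template count, with the number of clones above each bar, and diamonds give the percent expected from TIL depth at equal shares. Bars fall from 80.5% to 68.4% in A and from 47.5% to 8.70% in C, while no diamond exceeds 5.27%.

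The templates of these clones were concentrated in few of them. The 5 largest made up 21.4%, 30.1% and 19.7% of the templates of the set in A, B and C, and 19, 15 and 37 clones held 1 template in every 2. The median clone had 45, 36 and 35 templates. Just inside the limit, 63 of the 614 clones had 20 or 21 templates. Just outside it, 78 rearrangements of 18 or 19 templates were absent from TILs and 37 were present, and 92 expanded clones were kept out by a single TIL template.

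A1 was the largest clone, with 2356 CX3CR1+ templates or 4.22% of the library (95% Wilson interval 4.06 to 4.39%). It had 1 template in CD27lo CX3CR1- cells (0.00544%), 11 in CD27hi CX3CR1- cells (0.0204%) and 0 in TILs, where its CX3CR1+ share corresponded to 249 templates. Its TIL share was at least 83.0-fold lower than its CX3CR1+ share, with the TIL limit set at 3 templates. Of the CX3CR1- libraries, the CD27hi one gave A1 the higher share, but its CD27lo share rested on 1 template. The paper did not find the A1 CDR3 in the TILs of this experiment either, but describes it as highly homologous to dominant TIL CDR3s. Similarity between unlike CDR3s was not examined here.

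B1 had 1487 CX3CR1+ templates (2.92%), 0 in CD27lo CX3CR1- cells, 13 in CD27hi CX3CR1- cells (0.0265%) and 0 in TILs, against 361 TIL templates at equal share. Its TIL share was at least 120-fold lower, the widest bound among the 5 largest clones of each experiment. The paper describes the B1 CDR3 as highly similar to an abundant TIL CDR3 of the same experiment. B2, a clone of TCRBV03-01 and TCRBJ01-04, had 949 CX3CR1+ templates (1.86%), 13 in CD27lo CX3CR1- cells (0.0715%), 4 in CD27hi CX3CR1- cells (0.00814%) and 0 in TILs. For B2, unlike A1 and B1, the CD27lo library gave the higher share.

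In C the largest clone, C1, had 725 CX3CR1+ templates (0.638%), 5 in CD27lo CX3CR1- cells (0.0231%), 1 in CD27hi CX3CR1- cells (0.0014%) and 0 in TILs, at least 44.5-fold lower than in CX3CR1+ cells. C4, with 367 CX3CR1+ templates (0.323%), had no template in any other library of its experiment. Over the 5 largest clones of each experiment, the TIL bound ranged from at least 22.5-fold to at least 120-fold lower.

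**Figure D3:**
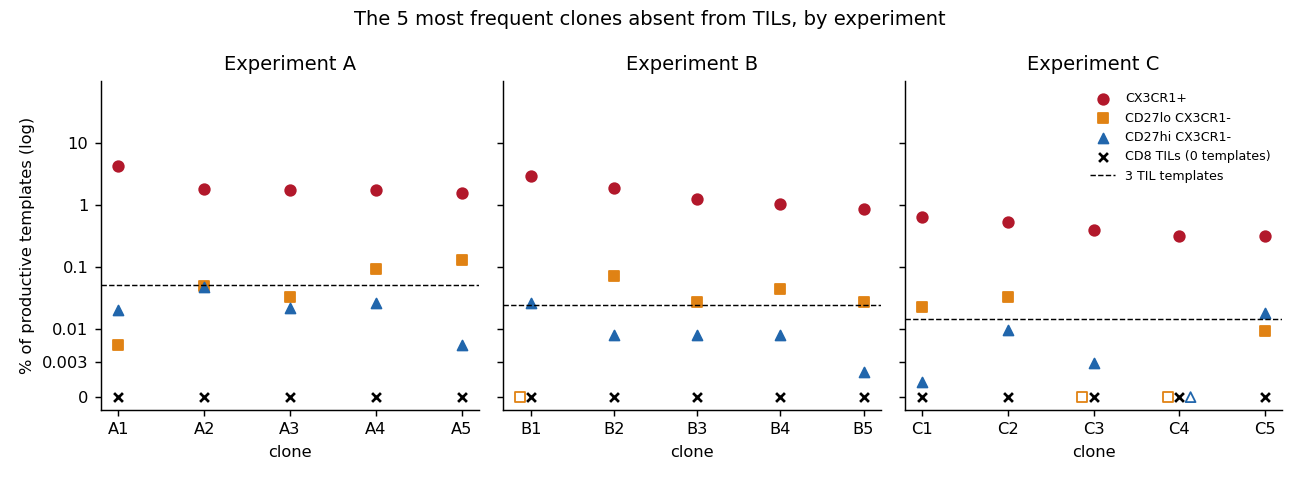
Percent of productive templates (log axis, with 0 at the bottom) of the 5 most frequent clones absent from TILs in each experiment, in CX3CR1+ cells (circles), CD27lo CX3CR1- cells (squares), CD27hi CX3CR1- cells (triangles) and TILs (crosses at 0), with 3 TIL templates as a dashed line and open symbols for 0 templates. All 15 circles lie above the dashed line, from 0.322% to 4.22%, and the CX3CR1- values lie at 0.131% or less.

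The CX3CR1- libraries did not enter the choice of clones and could be tested. The clones absent from TILs held 2.85%, 1.12% and 0.513% of CD27lo CX3CR1- productive templates in A, B and C, and 0.825%, 0.346% and 0.165% of CD27hi CX3CR1- templates. The CD27lo share was higher in 3 of 3 experiments, by 1.05 ± 0.872 percentage points (SD, n = 3; exact two-sided sign-flip permutation test within experiments, p = 0.25, the smallest that 3 experiments allow; p = 0.30 after Benjamini-Hochberg adjustment over 6 tests). The CD27lo share was 3.46, 3.24 and 3.11 times the CD27hi share, and for the clones detected in TILs it was 4.58, 3.19 and 5.51 times, so that a higher CD27lo share was common to both sets. Relative to CX3CR1+ cells, the clones were 18.2, 23.5 and 21.9 times less frequent in CD27lo CX3CR1- cells, and the clones detected in TILs 18.5, 22.5 and 17.1 times. Both sets were chosen by their CX3CR1+ counts, so an excess in CX3CR1+ cells was built into these ratios.

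Detection of single clones in CD27lo CX3CR1- cells was lower for those absent from TILs in each experiment. They were detected there in 110 of 246 clones in A (44.7%), 57 of 155 in B (36.8%) and 39 of 213 in C (18.3%), against 56.4%, 45.3% and 36.6% of the clones detected in TILs. The difference was -12.9 ± 4.97 percentage points (SD, n = 3; lower in 3 of 3 experiments, exact p = 0.25, adjusted p = 0.30). The comparison clones were larger, with median CX3CR1+ counts of 66.5, 48.0 and 62.0, and within bands of template count the difference was -6.59 points. In CD27hi CX3CR1- cells the direction was mixed. There, 50.4%, 38.7% and 27.2% of the clones absent from TILs were detected, against 38.5%, 55.3% and 43.2%. Neither CX3CR1- library held 91, 74 and 134 of the clones absent from TILs (37.0%, 47.7% and 62.9%), against 35.9%, 36% and 41.3% of the clones detected in TILs, so that the sets were nearly level in A.

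The clones with the highest CD27lo CX3CR1- share all came from experiment A. A63 had 96 templates there (0.522%) beside 87 in CX3CR1+ cells (0.156%), 12 in CD27hi CX3CR1- cells (0.0222%) and 0 in TILs, so that it was more frequent in the CD27lo CX3CR1- subset than in the CX3CR1+ subset. A5 had 24 templates in CD27lo CX3CR1- cells (0.131%) and A51 had 20 (0.109%), beside 1.55% and 0.222% of CX3CR1+ templates. A63 was 1 of 4 clones of A with a higher CD27lo CX3CR1- than CX3CR1+ share, while B and C had 0. Among the clones detected in TILs there were 0, 0 and 2.

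Absence of a rearrangement was not always absence of the CDR3 it encodes, matched here without regard to the V gene. In 17 clones of A, 15 of B and 13 of C the same CDR3 amino acid (AA) sequence was present in the TILs of the experiment through another rearrangement, 45 clones in all. In 33 of the 45, the most frequent TIL rearrangement of that CDR3 used the same V gene, and in 12 another one. In 15 of the 45 it differed from the clone by 1 base of the read. Without these clones the CX3CR1+ share absent from TILs was 47.9%, 21.9% and 10.8%.

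The 3 clones with the most TIL templates of their CDR3 encoded 1 CDR3 of TCRBV12-01 and TCRBJ02-05 in experiment B. They are shown with the most frequent TIL rearrangement, because they differ from it and from each other at a single base of the CDR3 (capitals).
TIL rearrangement, experiment B: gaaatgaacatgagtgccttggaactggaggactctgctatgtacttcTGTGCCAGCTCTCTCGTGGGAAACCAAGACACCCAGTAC
B10: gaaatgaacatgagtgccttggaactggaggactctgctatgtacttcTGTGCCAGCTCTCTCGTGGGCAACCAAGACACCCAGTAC
B34: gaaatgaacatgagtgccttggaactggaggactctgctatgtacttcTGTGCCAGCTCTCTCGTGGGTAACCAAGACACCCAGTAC
B35: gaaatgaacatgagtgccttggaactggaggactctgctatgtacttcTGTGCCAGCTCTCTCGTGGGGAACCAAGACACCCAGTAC
Counted from 1 at the 5′ end of the read, and with the TIL base first, the differences were A69C in B10, A69T in B34 and A69G in B35, each leaving the encoded AA sequence as it was. B10 had 269 CX3CR1+ templates, B34 87 and B35 83, all with 0 in TILs. The TIL rearrangement had 921 TIL templates and 221 in CX3CR1+ cells, and the CDR3 was carried by 7 TIL rearrangements with 1199 templates together, or 9.68% of the TIL library. B10, B34 and B35 had 12, 16 and 15 templates in CD27lo CX3CR1- cells and 4, 19 and 0 in CD27hi CX3CR1- cells. A CDR3 frequent in the TILs of B was thus also carried by CX3CR1+ clones whose own rearrangement had no TIL template. The paper reports this CDR3 as highly frequent in both CX3CR1+ cells and TILs of every experiment. In C it was carried by C185, a clone of TCRBV12-02 with 23 CX3CR1+ templates. Other rearrangements gave the CDR3 737 TIL templates in C (3.52%).

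A rearrangement that met the rule in more than 1 experiment is shown next, beside the TIL rearrangement that encoded its CDR3 in each of those experiments.
A40 and C16: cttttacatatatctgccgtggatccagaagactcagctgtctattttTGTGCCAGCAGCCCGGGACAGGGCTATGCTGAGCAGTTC
TIL rearrangement, experiment A: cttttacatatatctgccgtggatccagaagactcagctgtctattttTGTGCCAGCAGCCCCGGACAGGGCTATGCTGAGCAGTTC
TIL rearrangement, experiment C: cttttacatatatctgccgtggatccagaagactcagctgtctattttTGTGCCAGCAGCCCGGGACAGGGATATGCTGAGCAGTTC
This rearrangement of TCRBV05-01 and TCRBJ02-01 had 168 CX3CR1+ templates in A, as A40, and 114 in C, as C16. Its CDR3 was present in the TILs of both experiments through other rearrangements, with 208 templates in A (3.53%) and 212 in C (1.01%). The most frequent of them differed by C63G in A and by A72C in C, and had 22 and 74 CX3CR1+ templates. The other rearrangements that met the rule in more than 1 experiment were found in A and B. One of TCRBV13-02 and TCRBJ02-07 had 72 CX3CR1+ templates in A and 25 in B, another of TCRBV03-01 and TCRBJ01-03 had 54 and 77, and one more of TCRBV13-02 and TCRBJ01-04 had 42 and 48. Through other rearrangements, the CDR3 of the TCRBV13-02 and TCRBJ02-07 one had 16 TIL templates in A and 125 in B. That of the TCRBV03-01 one had 1 and 30. All 4 recurring rearrangements had 3 or fewer inserted nucleotides. At the level of the CDR3 AA sequence, 10 sequences recurred between experiments, 1 of them in all 3.

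Sharing with other experiments was compared at the level of the CDR3 AA sequence. In the TILs of the other 2 experiments, the CDR3 was found for 37 of 246 clones of A (15.0%), 23 of 155 of B (14.8%) and 14 of 213 of C (6.57%). For clones detected in the TILs of their own experiment the values were 35.9%, 24% and 17.4%. The difference was -13.6 ± 6.32 percentage points (SD, n = 3; lower in 3 of 3 experiments, exact sign-flip p = 0.25, adjusted p = 0.30), and it was -12.8 points within bands of template count. The CDR3s of clones absent from TILs were also the less frequently found in the other groups of the other experiments, each in 3 of 3. The differences were -7.44 ± 2.68 points in CD27lo CX3CR1- libraries, -7.94 ± 4.10 in CD27hi CX3CR1- libraries and -8.89 ± 1.26 in CX3CR1+ libraries (SD, n = 3). The TIL difference minus the CD27hi CX3CR1- difference was -5.69 ± 3.81 points, negative in 3 of 3 (SD, n = 3; exact p = 0.25). The 3 differences share libraries and are not fully independent.

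**Figure D4:**
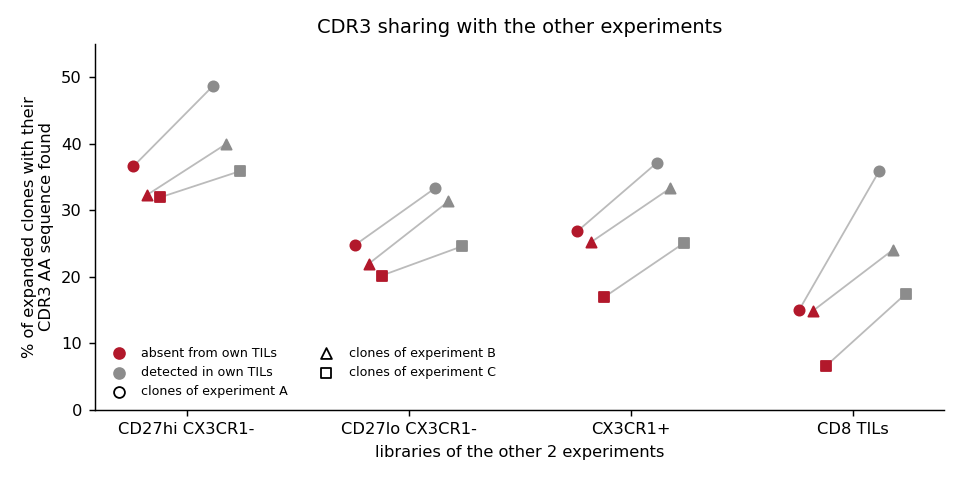
Percent of expanded clones whose CDR3 AA sequence was found in the libraries of the other 2 experiments, by cell group. Red symbols are clones absent from the TILs of their own experiment, grey symbols clones detected there, and a line joins the 2 sets of an experiment. All 12 lines rise from red to grey, and the red TIL values lie between 6.57% and 15.0%.

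Most V genes showed no single direction against the expanded clones detected in TILs. Of 24 V genes used by expanded clones, 6 (25%) differed from the comparison set in the same direction in all 3 experiments, 3 higher and 3 lower. These 6 are given as a description, since a common sign in 3 experiments was not tested. The most used was TCRBV03-01, with 26, 20 and 22 clones (10.6%, 12.9% and 10.3%) against 6.41%, 10.0% and 9.58% of the comparison clones. Its difference was 2.60 ± 1.73 percentage points (SD, n = 3), and it was also above the mean of 6.69% among CX3CR1+ rearrangements under 20 templates. TCRBV13-02 followed, with 23, 10 and 18 clones (1.21 ± 1.38 points above the comparison set). TCRBV20-01, used by 11, 5 and 7 clones, was 2.02 ± 1.34 points higher, at a mean of 3.66% against 1.64%.

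TCRBV19-01, next in use, had the widest difference in the other direction. It was used by 21, 11 and 14 clones (8.54%, 7.10% and 6.57%) against 16.7%, 9.33% and 9.58% of the clones detected in TILs, a difference of -4.46 ± 3.20 points. TCRBV15-01 (-1.34 ± 2.23) and TCRBV26-01 (-0.54 ± 0.48) were lower by small amounts on few clones, 8 and 10 in all. No p-value was attached to single V genes.

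**Figure D5:**
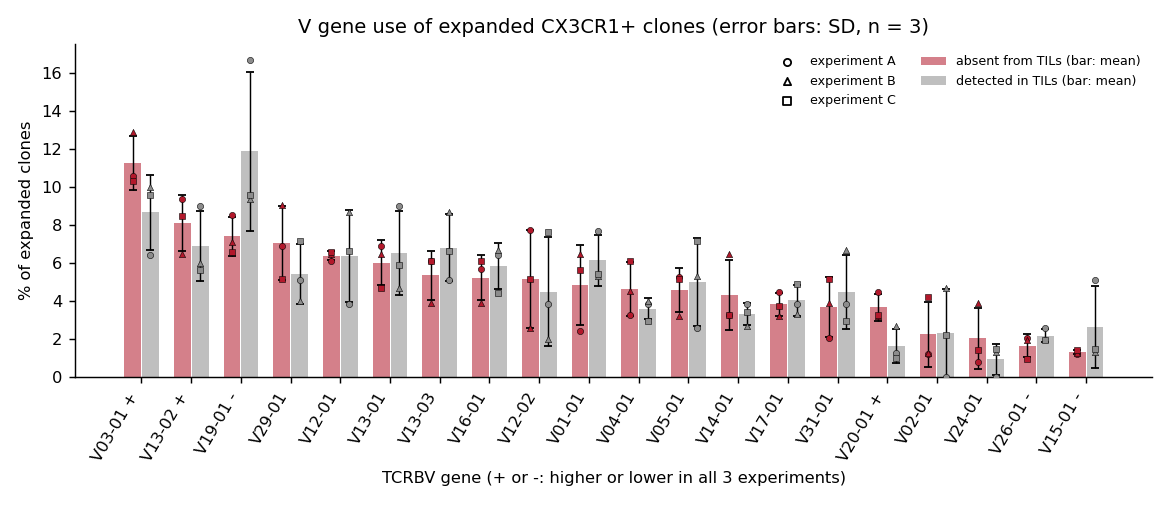
V gene use as percent of expanded clones absent from TILs (red) and detected in TILs (grey), for the 20 of 24 V genes with 6 or more clones absent from TILs. Bars are means, error bars the SD over 3 experiments and symbols the experiments, and + or - marks genes that differ in the same direction in all 3. TCRBV03-01 has the tallest red bar at 11.3% and TCRBV19-01 the tallest grey bar at 11.9%.

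All 36 V and J gene names of the clones matched a RefSeq gene of GRCm38.p6 on chromosome 6. Trbv3 lies at chr6:41048394-41048824, Trbv13-2 at chr6:41121396-41121832, Trbv19 at chr6:41178589-41179048 and Trbv20 at chr6:41188273-41188977. The J genes form 2 clusters, from Trbj1-1 at chr6:41533864-41533911 to Trbj2-7 at chr6:41543810-41543856. RefSeq lists Trbv29 and Trbv22 as V segment pseudogenes. TCRBV29-01 was used by 42 of the clones and 39 of the comparison clones, and TCRBV22-01 by 1 of each. Whether these rearrangements gave a functional chain was not tested. All 11 clones of TCRBV24-01 (2, 6 and 3) carried a stop codon in frame before the CDR3, as did the 8 such comparison clones. They held 0.1%, 0.784% and 0.513% of CX3CR1+ templates. Background knowledge of this gene, long named Vβ17, includes an allele with a premature stop codon in many strains.

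J genes of the TCRBJ02 cluster were used by 64.5%, 56.1% and 60.1% of the clones against 75.6%, 67.3% and 63.2% of the comparison clones. The difference was -8.49 ± 4.65 percentage points (SD, n = 3; lower in 3 of 3 experiments, exact sign-flip p = 0.25, adjusted p = 0.30). It reversed to 1.31 points when clones were weighted by their templates. Of 13 J genes, 1 (7.69%) shifted the same way in all experiments, TCRBJ02-05, with 4, 13 and 14 clones (1.63%, 8.39% and 6.57% against 5.13%, 9.33% and 6.67%).

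TCRBJ02-07 was the most used J gene, with 80, 34 and 60 clones (27.6% ± 5.38, SD, n = 3) against 28.0% ± 5.59. TCRBJ02-01 had a mean of 10.9% against 16.6%, lower in A and C and higher in B. TCRBJ02-02, TCRBJ02-03 and TCRBJ02-04 had means of 5.54%, 5.78% and 4.94%, and TCRBJ02-06 was used by none of the clones. In the other cluster, TCRBJ01-03 had the highest mean at 9.74%, followed by TCRBJ01-04 at 8.14%, TCRBJ01-01 at 7.91%, TCRBJ01-02 at 6.19%, TCRBJ01-05 at 5.58% and TCRBJ01-06 at 2.21%.

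The CDR3s had a median of 14 residues in each experiment and ranged from 9 to 21. Their mean length was 40.9, 41.5 and 41.5 nucleotides in A, B and C, against 42.2, 41.2 and 41.7 in the comparison clones. The difference of -0.354 ± 0.820 nucleotides (SD, n = 3; exact p = 0.75, adjusted p = 0.75) was within the spread between experiments. Inserted nucleotides, the untemplated bases at the V-D and D-J junctions, averaged 3.52, 3.50 and 3.62 against 3.27, 3.26 and 3.40. The difference was 0.236 ± 0.0192 nucleotides (SD, n = 3; higher in 3 of 3, exact p = 0.25, adjusted p = 0.30). It was 0.126 at a minimum of 50 templates, and with 1 TIL template allowed it was 0.158 and no longer had 1 direction. No inserted base was found in 7.32%, 8.39% and 11.3% of the clones.

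Of 9 CDR3 and J features compared, the share of CDR3s with a lysine or arginine between the 3 outer residues at each end was also higher in 3 of 3 experiments. It was 50.8%, 49.7% and 52.6% in the clones absent from TILs and 41.0%, 49.3% and 47.4% in the comparison clones, a difference of 5.10 ± 4.72 points (SD, n = 3; exact p = 0.25). In B the 2 sets were nearly level, and CX3CR1+ rearrangements under 20 templates had a mean of 43.8%. The number of basic residues and the share with arginine, which overlap with this measure, were also higher in 3 of 3. Length, the share without insertions, acidic residues and glycines had no single direction.

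Clones whose exact rearrangement was seen in any library of another experiment numbered 30, 21 and 17 (12.2%, 13.5% and 7.98%), against 11.5%, 12% and 13.3% of the comparison clones. At this level the share was higher in A and B and lower in C, unlike the single direction seen for CDR3 AA sequences. The shared clones had means of 1.63, 1.81 and 1.47 inserted nucleotides against 3.78, 3.77 and 3.80 in the rest. In the comparison clones the means were 1.00, 1.28 and 1.57 against 3.57, 3.53 and 3.68.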

How the data were processed

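TCRβ rearrangements were amplified by the authors from genomic DNA with the ImmunoSEQ assay, sequenced on an Illumina NextSeq system and processed on the ImmunoSEQ platform. The processing notes of the labels name mm10, and software versions are not given in the sources used here. The deposited files give, per rearrangement, a template count (a whole number without normalization, equal to the estimated genomes in every entry), its fraction of all templates, CDR3 length, insertions and gene names. The fraction deposited by the authors counts non-productive templates too and was not used. Shares were computed here from the counts of productive templates.

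Cell group and experiment came from the sample labels, and the shared code paired the 4 libraries of an experiment. Between 18.3% and 44.7% of the clones were found in the CD27lo CX3CR1- library of their own experiment, and 0.939% to 4.52% in that of another. Groups of experiments (n = 3) were compared by exact two-sided sign flips within experiments (the replicate block), for 6 measures the choice of clones did not use, at a threshold of 0.05, with Benjamini-Hochberg adjustment over the 6. The p-values for the TIL minus CD27hi difference in CDR3 sharing and for lysine or arginine lie outside these 6 and are unadjusted. Where nothing in the labels separates mice, p-values measure the spread between experiments. Counts and shares that the choice used were described with no test.

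The clones and the lists of features were chosen with earlier results of these data known. Clones named were the 5 largest per experiment, the 3 with the highest CD27lo CX3CR1- share, those that recurred, and the 3 with the most TIL templates of their CDR3. V genes named were the 3 most used and the 3 widest differences each way among those with 1 direction, and all J genes were named. TCRBV29-01, TCRBV24-01 and TCRBV22-01 were named after their values were seen.

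Wilson intervals are at 95%. Functions were tested on simulated data. Alternatives were other template minimums, clone definitions, TIL limits, weights and each experiment left out. Python 3.11.15, numpy 2.4.6, pandas 2.3.3, scipy 1.17.1 and matplotlib 3.10.9 were used. V and J positions came from RefSeq (GRCm38.p6, the NCBI name of mm10).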

Additional observations from a re-analysis of the deposited data

Results flagged for a closer look

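Out-of-frame rearrangements, which encode no receptor and were used in no comparison above, gave nearly the same shares by the same rule. Of those with 20 or more CX3CR1+ templates, 94 of 124 in A (75.8%), 56 of 113 in B (49.6%) and 86 of 256 in C (33.6%) had no TIL template, beside 75.9%, 50.8% and 34.4% of the productive clones. They were noted because they lie outside the productive data and exceed the 4.16, 0.221 and 3.07 that TIL depth alone would leave at 0. An out-of-frame rearrangement is carried by a cell along with a productive one, so that these values are not independent of those of the productive clones.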

How the results depend on the processing

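The number of clones followed the limits, with 1237 at a minimum of 10 templates, 238 at 50 and 245 among non-productive rearrangements, against 614. It was 368 to 459 with an experiment left out, and without A the share of CX3CR1+ templates was 18.8%, in a range of 18.8 to 39.1%. The ratio of observed to expected numbers, 52.4, moved most: it was 2739 at a minimum of 50 templates, 9.99 at a minimum of 10, 14.6 with 1 TIL template allowed, 8.29 with TILs thinned and 83.4 at a minimum share of 0.04%, and 40.7 to 135 with an experiment left out, but above 1 in each. Left-out experiments gave 9 to 13 V genes with 1 direction (fewer experiments have to agree) against 6, and -0.71 to 0.094 nucleotides for CDR3 length, which turned positive without A. TCRBJ02 use turned to 1.31 points when weighted by templates. Without the replicate block, exact p-values were 0.10 to 0.40 and no call changed. Leaving out 1 experiment kept the direction of the other tested differences: 0.562 to 1.40 points for CD27lo minus CD27hi share, -15.0 to -10.1 for CD27lo detection, -15.9 to -10.0 for CDR3s in other TILs, -11.2 to -7.13 for TCRBJ02 and 0.229 to 0.247 for insertions. The insertion difference of 0.236 was less steady elsewhere: 0.129 at a minimum of 10 templates, 0.126 at 50, 0.158 ± 0.164 with 1 TIL template allowed and 0.621 ± 0.812 weighted by templates, with the last 2 not in 1 direction (exact p = 0.50). Alternatives chosen after seeing the data left 603 clones (stop codon in V left out) and 569 (CDR3 AA absent from TILs). In all, 107 of the recomputed values were labelled unchanged, 8 moved and 2 reversed. Tested differences were labelled by direction and side of the threshold, counts by a limit on fold change. The share and the observed-to-expected ratio were labelled by their SD over experiments. For the ratio this SD was 174, above the ratio itself, so no fall of it could be labelled moved. With 3 experiments no test could reach 0.05, so these p-values say nothing about stability. At the TIL depths, 0 templates still allow shares of up to 0.0143 to 0.0509%. Near-identical V genes, such as TCRBV12-01 and TCRBV12-02, may be split by the authors' gene calls.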

Other observations

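The clones were also set beside CX3CR1+ rearrangements under 20 templates. TCRBJ02-05, which was lower against the clones detected in TILs too, was used by a mean of 5.53% of the clones and 10.2% of the rearrangements under 20 templates, lower in 3 of 3 experiments, and TCRBJ02-01 by 10.9% and 13.7%, also lower in 3 of 3. TCRBJ01-03 had means of 9.74% and 5.39%, higher in 3 of 3. TCRBV17-01 was higher in 3 of 3 as well, at 3.82% and 2.70%. Other V and J genes also had 1 direction, and TCRBJ02-07 had the largest rise among J genes, 5.61 percentage points. The clones detected in TILs had means of 7.04% for TCRBJ02-05, 16.6% for TCRBJ02-01, 7.71% for TCRBJ01-03 and 4.03% for TCRBV17-01. Except for TCRBJ02-01, these means differed from the rearrangements under 20 templates in the same direction. The differences from rearrangements under 20 templates thus compare expanded with rarer clones of the same libraries. Clone size was chosen in this contrast, and the values are given with no test.

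Acidic residues in the middle of the CDR3 averaged 1.16 in the clones, 1.21 in the comparison clones and 1.28 in the rearrangements under 20 templates. Against the comparison clones the acidic mean was lower in 2 of 3 experiments and higher in 1. Basic residues averaged 0.674, 0.602 and 0.553 in the same order of sets. In CD27hi CX3CR1- cells the means were 1.31 and 0.523.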
